A study of Mus musculus with 4 samples.

Results

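The genes that encode the proteins of the cytosolic ribosome were examined in mouse oligodendrocytes with and without Zdhhc5, which encodes an acyltransferase that adds palmitate to other proteins. The members were chosen by name and not by any measured value: protein-coding genes with an Rpl or Rps name and a number, together with Rplp0, Rplp1, Rplp2 and Rpsa, without the S6 kinases. Of the 6940 genes in the table, 49 met this rule. They comprised 29 genes of the large subunit and 19 of the small subunit, and the last, Rps19bp1, encodes a protein that binds RPS19 and is no part of the ribosome. Of 77 standard ribosomal protein genes, 46 (59.7%) were in the table, 29 of 46 for the large and 17 of 31 for the small subunit. The other 31, among them Rpl5, Rpl13a and Rps6, were not analysed here.

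The cKO cells had the genotype Olig1cre/+;Zdhhc5fl/fl, in which Cre recombinase made from the Olig1 locus deletes floxed Zdhhc5 in the oligodendrocyte lineage. The control cells were Zdhhc5fl/fl and carried no Cre, so an effect of Cre or of the changed Olig1 locus cannot be told apart from that of Zdhhc5. Cortices of C57BL/6 pups on postnatal day 5 gave the cells of both genotypes. They were selected by panning with antibodies to GalC and then O4, grew for 6 days, and were harvested after 24 h with the thyroid hormone triiodothyronine at 40 ng/mL. There were 2 libraries of each genotype, and the labels do not say whether they came from separate cultures or animals, so p-values measure only the spread between these libraries, which may be technical. Zdhhc5 itself was not analysed here, so its level did not check the genotype labels. Mature oligodendrocyte markers were present in every library, but astrocyte markers summed to more normalised reads in every library, as given with the marker lists at the end. In control libraries this order rested on Gfap, which alone held 351481 and 352111 of the astrocyte markers' normalised reads.

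The cytosolic ribosome reads messenger RNA and makes the cell's proteins. Its small subunit decodes the message, its large subunit joins the amino acids, and each ribosome takes one copy of most ribosomal proteins, so their genes are usually expressed together. Their messenger RNAs are short, abundant and begin with a run of pyrimidines, the 5' terminal oligopyrimidine (TOP) tract, through which the mTOR pathway controls their translation. Oligodendrocytes depend on this machinery because they make large amounts of myelin protein and lipid enzymes as they mature. The mouse genome also holds many processed copies of these genes, and short reads can match a gene and its copies equally well.

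The values are reads per gene divided by one size factor per library, called normalised reads here. The listed genes held 20068016 and 13672254 reads in the cKO libraries and 17077509 and 16773675 in the control libraries. Every listed gene had an adjusted p under 0.05 in the authors' deposited table, so the background is a table of called genes. In the limma test used here on log2(normalised reads + 1), with Benjamini-Hochberg adjustment, 100% of the 6940 genes were called at an adjusted p under 0.05, of which 46.7% of the listed genes were higher and 53.3% lower in cKO cells. Relative log expression factors, another scaling, moved the median of all listed genes by 0.19 on the log2 scale, and directions below are relative to the authors' scaling unless stated.

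Ribosomal protein mRNAs were slightly higher in cKO cells. Of the 49 members 48 rose and 1, Rps27rt, fell, against 46.7% higher and 53.3% lower among all listed genes. The median log2 fold change was 0.24 over the members and -0.22 over all listed genes. The changes were small: 1 member was at least 1.5-fold higher and 1 at least 1.5-fold lower, against 17.4% and 27.6% of the listed genes. The 45 members outside the Rps27 family and Rps19bp1 all rose, by between 1.06-fold and 1.34-fold (ratio of mean normalised reads), with a median of 1.17-fold. Under TMM and relative log expression factors, the members' medians were 0.31 and 0.43 on the log2 scale, against -0.15 and -0.03 over all listed genes. Each of these scalings raised the members alike, so that 48 again rose and 1 fell by construction. The table lists only genes that had been called, so this count does not speak for the 31 genes that were not analysed.

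**Figure D1:**
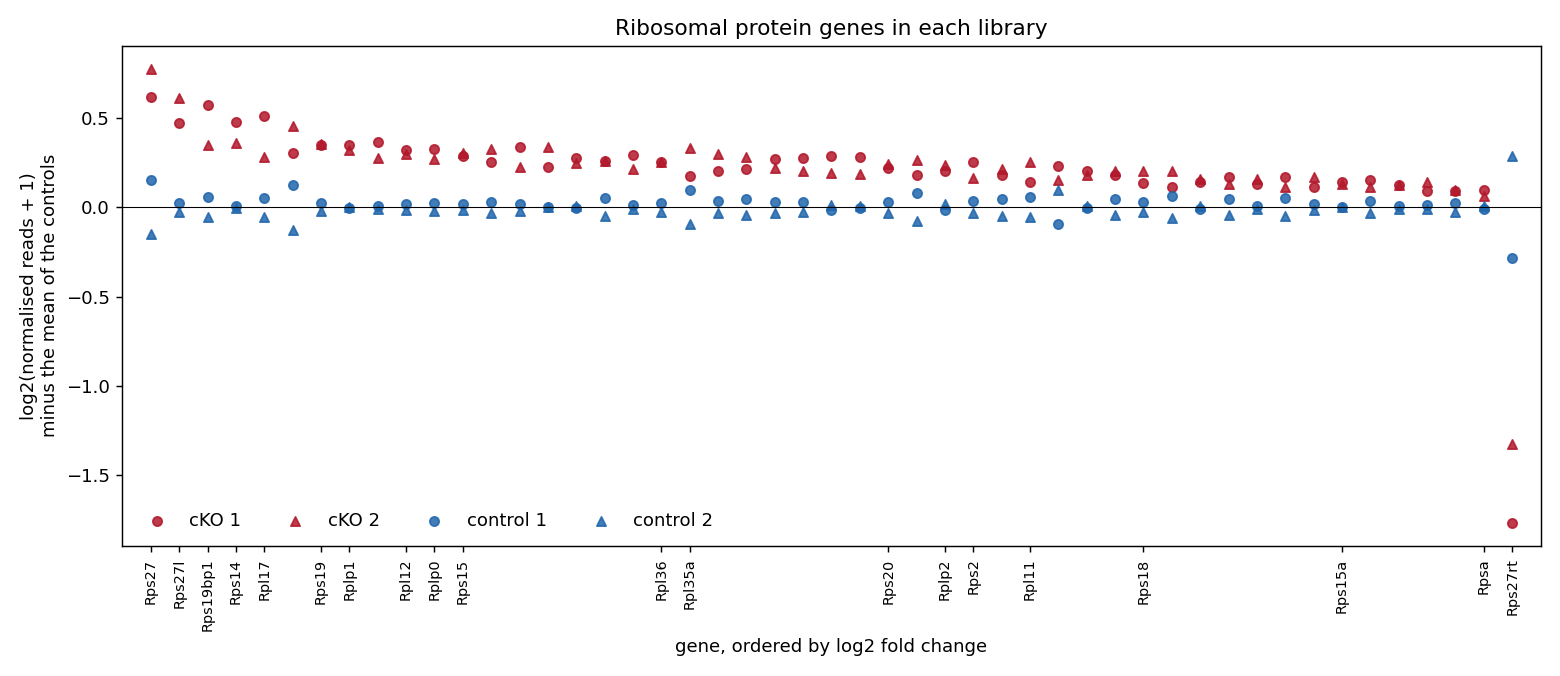
Each of the 49 members in each of the 4 libraries, as log2(normalised reads + 1) minus the mean of the 2 controls (vertical axis), with genes ordered by log2 fold change (horizontal axis) and the 20 genes described most closely labelled. The cKO libraries (red) lie above both controls (blue) in 48 members and below them in Rps27rt.

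The summed share of reads, drawn from the same values, shifted in the same direction. Members took 2.75% of the listed reads in each cKO library, against 2.28% and 2.21% in the control libraries. The total behind this share was itself lower in cKO libraries. All listed genes summed to 16385466 and 16223383 normalised reads there, against 17077509 and 17077629 in control libraries. Both cKO libraries lay above both controls in 48 members, and 46.7% of all listed genes showed this arrangement. The median absolute log2 difference between replicates over the members was 0.059 for the cKO pair and 0.052 for the control pair. Members moved together between the controls: 38 of 49 were higher in control 1, with a signed median of 0.050, against -0.003 over all listed genes. Between the cKO libraries 23 were higher in cKO 1 and 26 in cKO 2. With 2 libraries against 2, an exact two-sided permutation test over libraries cannot give a p below 0.333. Leaving out control 2 gave the lowest members' median of any left-out library, 0.21 on the log2 scale, against -0.21 over all listed genes. The call was then lost for Rps4x, Rps7, Rps9, Rps25, Rpsa, Rpl9, Rpl32, Rpl34 and Rpl35a. The share of all listed genes that lost it is not given here, so these losses cannot be read as particular to the members.

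The rise moved with gene length. Members are short, with a median deposited gene length of 1734 bases against 4892 over all listed genes. Among the other listed genes, those shorter than 1000 bases were higher in cKO cells in 76.6% of cases (128 of 167), with a median log2 fold change of 0.37, while those of 8000 bases or more were higher in 22.6% (367 of 1627), with a median of -0.50. In the range from 1000 to 2000 bases, 20 members had a median log2 fold change of 0.25, and the 627 other listed genes one of 0.40. When the trend with gene length over all listed genes was removed, 7 members were called higher and 14 lower, against 37.2% and 46.1% of the listed genes, with 83.3% of those called in either direction. The members' median was then -0.06, against -0.07 over all listed genes. Under the authors' scaling, the members' median lay below that of other listed genes in each length range under 4000 bases. It lay above it for the 4 members of 4000 to 8000 bases, at 0.21 against -0.31. Those 4 are Rpl18, Rps19, Rps20 and Rps15a. In each, deposited length exceeds the reference transcript, most in Rps19, at 4685 against 774 bases.

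**Figure D2:**
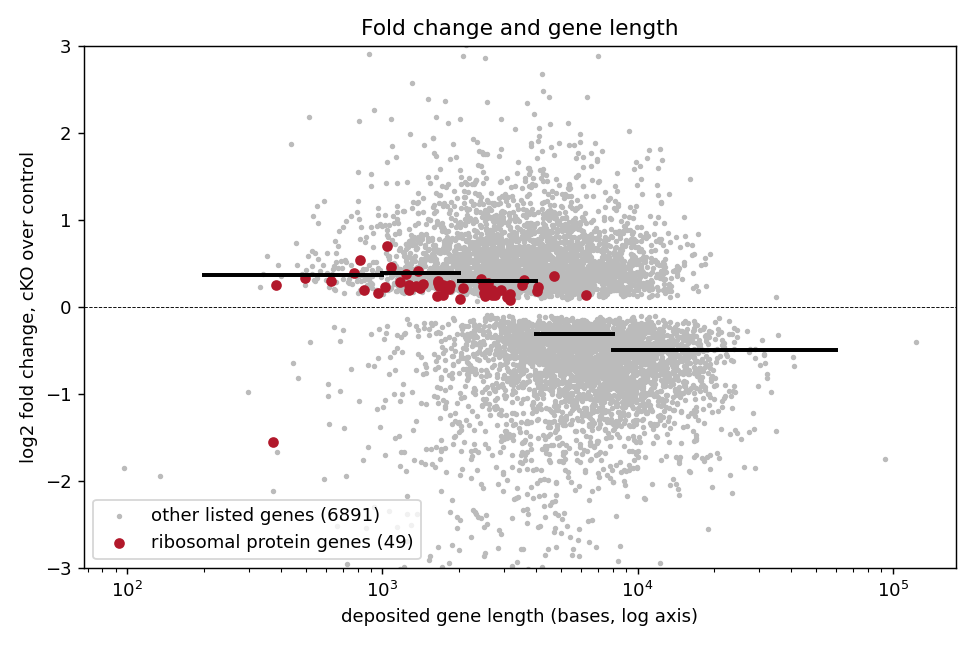
Log2 fold change of cKO over control (vertical axis) against deposited gene length in bases (log axis) for the 49 members (red) and the 6891 other listed genes (grey). Black bars are medians of the other listed genes in 5 length ranges, from 0.37 in the shortest to -0.50 in the longest, and 35 genes lie outside the plotted range. The gap around 0 arises because only called genes are listed.

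GC content moved with the fold change as well. Across the 6885 other listed genes with a reference transcript, Spearman's rho between GC content and log2 fold change was 0.52, and that between gene length and log2 fold change over 6891 genes was -0.34. Genes are not independent replicates, and these values describe the table. Members had a median GC content of 52% against 50% over all listed genes. With the GC trend removed, 21 members were called higher and 8 lower, against 35% and 34.7% of the listed genes (69.7% in either direction), and their median was 0.06. Removing both trends gave 12 higher and 21 lower, against 34.3% and 34.9% of the listed genes (69.2% in either direction).

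Genes of both subunits rose. Among all listed genes 46.7% rose and 53.3% fell, with a median of -0.22. All 29 listed large subunit genes rose, with log2 fold changes from 0.12 to 0.40 and a median of 0.25. Of the 19 small subunit genes 18 rose and 1 fell, with a median of 0.20 and a range from -1.55 to 0.70. Without the 3 genes of the Rps27 family, every small subunit gene also lay between 0.08 and 0.42. Summed over its members, the large subunit had 269530 and 267926 normalised reads in cKO libraries, against 230449 and 224161 in control libraries, 1.18-fold higher. The small subunit had 179724 and 178217 normalised reads in cKO libraries, against 157576 and 153402 in control libraries, 1.15-fold higher.

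The ratio of large to small subunit reads was 1.5 in each cKO library and 1.46 in each control library. The genotypes did not overlap in this ratio. With the trend of gene length removed, the medians of the large and small subunit were -0.04 and -0.08. Their directions turned, but the median over all listed genes was then -0.07. In that setting 2 large subunit genes were called higher and 5 lower, and 5 small subunit genes higher and 9 lower. Among all listed genes 37.2% were higher and 46.1% lower. With the GC trend removed the subunit medians were 0.05 and 0.06, against 0.01 over all listed genes.

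**Figure D3:**
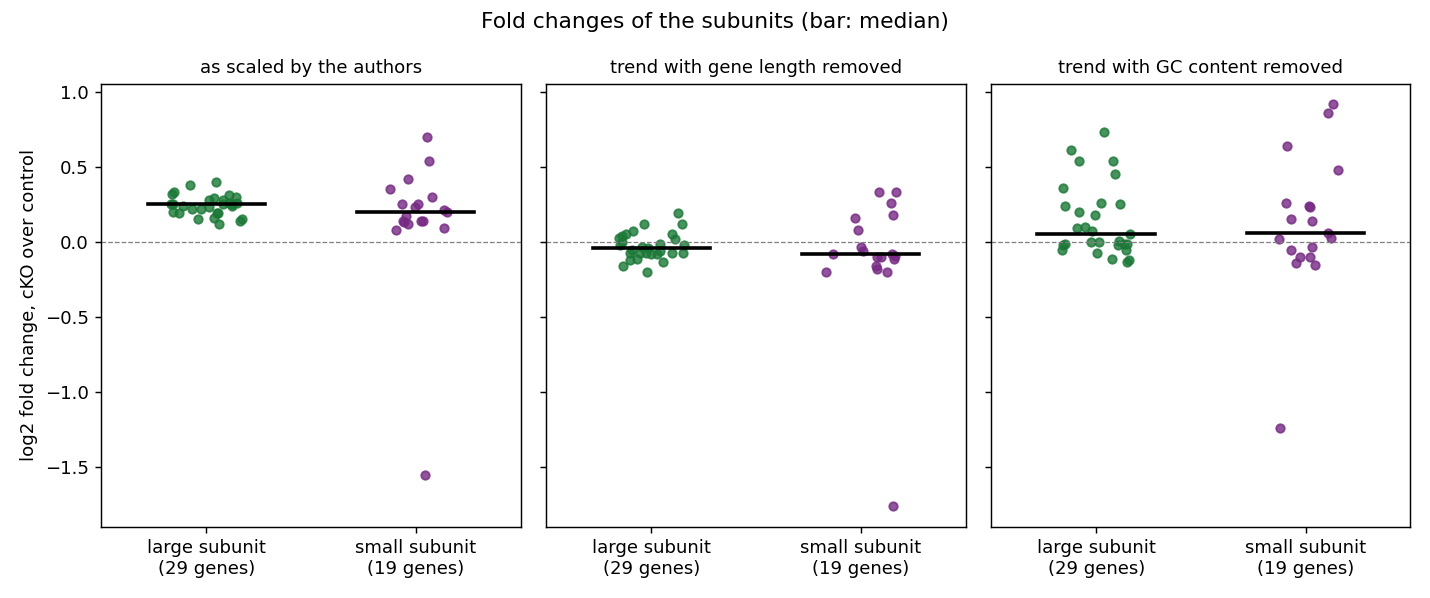
Log2 fold changes of cKO over control (vertical axis) for the 29 large and 19 small subunit genes, as scaled by the authors, with the trend of gene length removed, and with the trend of GC content removed. Points are genes and bars are medians, which lie at 0.25 and 0.20, at -0.04 and -0.08, and at 0.05 and 0.06.

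Among the large subunit genes, Rplp0 and Rplp1 stood out by level, while Rplp2 lay below the members' median in every library. Rplp0, Rplp1 and Rplp2 encode the proteins of the ribosomal stalk, which recruits the elongation factors, and Rplp0 is often used as a reference gene in quantitative PCR. Rplp0 (chromosome 5, 115559467 to 115563727 of GRCm38) had 26247 and 25344 normalised reads in cKO libraries, against 21335 and 20636 in control libraries, the highest of all members in every library. On the log2 scale it rose by 0.30 (SE 0.03, limma adjusted p 9.27e-09), and stood at -0.02 with the trend of gene length removed. Rplp1 had 18903 and 18540 normalised reads in cKO libraries, against 14850 and 14889 in control libraries, a log2 fold change of 0.33, and 0.05, no longer called, with the length trend removed. Rplp2 had 6951 and 7120 normalised reads in cKO libraries, against 5981 and 6111 in control libraries, a log2 fold change of 0.22, and -0.07 with the length trend removed. For each of the stalk genes both cKO libraries lay above both controls by more than the gap between replicates.

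Per kilobase of deposited gene length, Rplp1 was the highest of the large subunit genes, at 37518 ± 513 normalised reads per kb in cKO cells and 29799 ± 55.3 in control cells (SD, n = 2 each). Rplp0 followed at 15549 ± 385 in cKO cells and 12650 ± 298 in control cells, and Rpl36 at 15350 ± 6.66 in cKO cells and 12878 ± 328 in control cells, so that these neighbours did not differ beyond their spread. By the mean over both genotypes, the lowest were Rpl35a, at 1017 ± 79 normalised reads per kb in cKO cells and 855 ± 81 in control cells, Rpl17, at 1422 ± 157 in cKO cells and 1078 ± 57.2 in control cells, and Rpl12, at 1896 ± 20.5 in cKO cells and 1530 ± 24.4 in control cells. Deposited gene length covers more than the mature mRNA of some members: it is 3526 bases for Rpl35a and 3598 for Rpl12, whose reference transcripts have 518 and 1242 bases. Levels per kb therefore understate such genes, and the order rests in part on their annotation.

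Other large subunit genes rose by similar amounts. Rpl11, which joins the 5S RNA particle and can bind the p53 regulator MDM2 when it is free of ribosomes, had 9994 and 10775 normalised reads in cKO libraries, against 9418 and 8708 in control libraries. The log2 difference was 0.20 (SE 0.04, limma adjusted p 0.000173), and -0.03 with the length trend removed. Rpl17, near the exit of the tunnel for the new protein chain, had the largest rise of the large subunit, with 1188 and 1016 normalised reads in cKO libraries, against 867 and 804.3 in control libraries. That rise was 0.40 on the log2 scale (SE 0.07, limma adjusted p 5.41e-05), and 0.04, no longer called, with the trend of gene length removed, while it was 0.61 with the GC trend removed. Rpl12, at the base of the stalk, had 6872 and 6768 normalised reads in cKO libraries, against 5568 and 5444 in control libraries. Its log2 fold change of 0.31 remained positive and called with the length trend removed, at 0.19. Called higher in that setting were 7 members: Rps27, Rps27l, Rps19, Rpl12, Rps20, Rpl18 and Rps15a, against 37.2% of all listed genes. The correction uses deposited gene length. For Rpl12, Rpl18, Rps20, Rps19 and Rps15a this is 3598, 4043, 4080, 4685 and 6270 bases, against a members' median of 1734. The reference transcripts of Rpl12 and Rps19 have 1242 and 774 bases, so these kept calls rest in part on annotation.

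Rpl35a and Rpl36 rose by 0.25 each on the log2 scale. Rpl36 had 5877 and 5881 normalised reads in cKO libraries, against 5021 and 4843 in control libraries, so that the genotypes did not overlap. It was at 0.03 on the log2 scale, no longer called (limma adjusted p 1), with the length trend removed, and was called lower, at -0.13 (limma adjusted p 0.00624), with the GC trend removed. Rpl35a, a gene of Diamond-Blackfan anaemia in humans, had 3390 and 3784 normalised reads in cKO libraries, against 3218 and 2814 in control libraries, so that the 2 libraries nearest to each other differed by less than either pair of replicates. The call on Rpl35a was lost in DESeq2 on recovered reads (adjusted p 0.104), which also lost Rpl23a, and with the length trend removed, at 0.12 on the log2 scale (limma adjusted p 0.105).

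Small subunit genes had a wider range. Rps14, a platform protein of the small subunit, lost in the human 5q- syndrome, had 17057 and 15675 normalised reads in cKO libraries, against 12282 and 12188 in control libraries. Its rise of 0.42 on the log2 scale (SE 0.04, limma adjusted p 3.33e-10) was the largest outside the Rps27 family and Rps19bp1, and was 0.08, no longer called, with the trend of gene length removed and 0.26 with the GC trend removed. Rps19, needed for maturation of the small subunit RNA and the gene most often mutated in Diamond-Blackfan anaemia, had 9109 and 9145 normalised reads in cKO libraries, against 7264 and 7027 in control libraries. It rose by 0.35 on the log2 scale (SE 0.03, limma adjusted p 3.61e-09), and stood at 0.33 with the length trend removed and 0.02 with the GC trend removed. Both genes rose under the authors' scaling with no overlap between genotypes, and each lost its call under one of the corrections.

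Rps15, close to the decoding centre, had 9168 and 9263 normalised reads in cKO libraries, against 7594 and 7428 in control libraries, a log2 fold change of 0.30. Rps2, which lies at the entry of the mRNA channel, had 20357 and 19139 normalised reads in cKO libraries, against 17520 and 16687 in control libraries, a log2 fold change of 0.21. Rps18, another common reference gene, had 9257 and 9697 normalised reads in cKO libraries, against 8606 and 8268 in control libraries, a log2 fold change of 0.17. These genes did not overlap between genotypes, and their log2 fold changes turned to -0.03, -0.10 and -0.08 with the length trend removed. The median of all listed genes was then -0.07. Of the genes just given, only Rps2 was then called lower (limma adjusted p 0.0189), while Rps15 and Rps18 lost their calls.

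Rps20 and Rps15a kept their direction and call under the length and the GC correction, as did Rpl12, Rps27, Rps27l and the falling Rps27rt. Rps20 had 5740 and 5843 normalised reads in cKO libraries, against 5040 and 4831 in control libraries, with a log2 fold change of 0.23, which was 0.16 with the length trend removed and 0.86 with the GC trend removed. Rps15a had 6219 and 6190 normalised reads in cKO libraries, against 5651 and 5646 in control libraries, with a log2 fold change of 0.14, which was 0.26 with the length trend removed and 0.48 with the GC trend removed. Their reference transcripts, of 3706 and 5179 bases, are long for ribosomal protein genes, and the GC correction uses the GC content of these transcripts, while the length correction uses the deposited gene length. Rpsa, which encodes the laminin receptor protein of the small subunit, changed least, with 19669 and 19223 normalised reads in cKO libraries, against 18295 and 18534 in control libraries. This was a log2 difference of 0.08 (SE 0.03, limma adjusted p 0.0376), and the call was lost on leaving out control 1, control 2 or cKO 1.

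Per kilobase, the highest small subunit genes were Rps15, at 14628 ± 106 normalised reads per kb in cKO cells and 11922 ± 186 in control cells (SD, n = 2 each), Rps14, at 11825 ± 706 in cKO cells and 8840 ± 48.1 in control cells, and Rps2, at 10791 ± 471 in cKO cells and 9346 ± 322 in control cells. By the mean over both genotypes, the lowest were Rps15a, at 990 ± 3.25 normalised reads per kb in cKO cells and 901 ± 0.508 in control cells, Rps20, at 1419 ± 17.8 in cKO cells and 1210 ± 36.2 in control cells, and Rps19, at 1948 ± 5.47 in cKO cells and 1525 ± 35.8 in control cells. In cKO cells alone Rps27rt, at 1376 ± 297, lay below Rps20, while it stood at 4054 ± 1120 in control cells. Rps14 lay above Rps2 in cKO cells and below it in control cells. The deposited lengths of Rps15a, Rps20 and Rps19 are 6270, 4080 and 4685 bases, so these low places in the order also rest on annotation.

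The family of Rps27 held both the largest rise and the fall. Rps27 encodes a zinc-binding protein of the small subunit, Rps27l is a related gene known as a p53 target, and Rps27rt is annotated as a retrogene, a copy made from a spliced mRNA. The coding sequence of Rps27rt is shown because it is the same as that of Rps27 at every one of 255 bases, while that of Rps27l differs from it at 61 bases (76.1% identity). The sequences run from start to stop codon in GENCODE M21 on GRCm38, with capitals in Rps27l marking the bases that differ from Rps27. Rps27 lies on chr3:90212725-90213615, minus strand, in 4 exons. Rps27rt lies on chr9:114982453-114982707, minus strand, in 1 exon. Rps27l lies on chr9:66946175-66949357, plus strand, in 4 exons.
Rps27 and Rps27rt: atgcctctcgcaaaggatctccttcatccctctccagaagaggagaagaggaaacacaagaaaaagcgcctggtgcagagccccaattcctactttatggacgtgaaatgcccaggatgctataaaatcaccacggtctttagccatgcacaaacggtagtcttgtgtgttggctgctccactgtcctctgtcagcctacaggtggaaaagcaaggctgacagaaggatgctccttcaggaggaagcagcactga
Rps27l: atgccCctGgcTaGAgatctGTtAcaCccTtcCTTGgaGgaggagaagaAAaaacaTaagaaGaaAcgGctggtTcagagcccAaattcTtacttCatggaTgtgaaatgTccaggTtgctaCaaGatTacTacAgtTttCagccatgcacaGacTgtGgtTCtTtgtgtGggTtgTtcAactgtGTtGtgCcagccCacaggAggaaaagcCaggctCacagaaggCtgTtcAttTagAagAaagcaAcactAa

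Rps27 had 3891 and 4338 normalised reads in cKO libraries, against 2812 and 2284 in control libraries. On the log2 scale it rose by 0.70 (SE 0.06, limma adjusted p 1.7e-09). Rps27rt had 436 and 593.3 normalised reads in cKO libraries, against 1220 and 1812 in control libraries, and fell by 1.55 on the log2 scale (SE 0.12, limma adjusted p 1.3e-10). With the length trend removed these log2 fold changes were 0.33 and -1.76, and with the GC trend removed 0.64 and -1.24. The genotypes did not overlap in either gene. Between the controls the genes moved in opposite directions, with Rps27rt higher and Rps27 lower in control 2. Between the cKO libraries they moved in the same direction, both higher in cKO 2.

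Because the coding sequences are identical, a read within them cannot be assigned to either gene. Of all windows of 50 bases in the Rps27 reference transcript, 98.6% also occurred in Rps27rt. Summed over both genes, there were 4327 and 4931 normalised reads in cKO libraries, against 4032 and 4096 in control libraries. The sum averaged 4629 ± 428 in cKO cells and 4064 ± 45.2 in control cells (SD, n = 2 each), 1.14-fold higher, with a log2 difference of 0.18. That difference is like the members' median, although the cKO replicates differed by more than the 2 genotypes' means did. Because Rps27 rose and Rps27rt fell, the change of their sum had to lie between theirs, so its smaller size says nothing about read assignment. The part of the pair's reads counted for Rps27rt was 10.1% and 12% in cKO libraries, against 30.3% and 44.2% in control libraries. The sum was examined after the values of both genes had been seen, and the way the authors counted reads that match several places is not given in the sources used here.

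**Figure D4:**
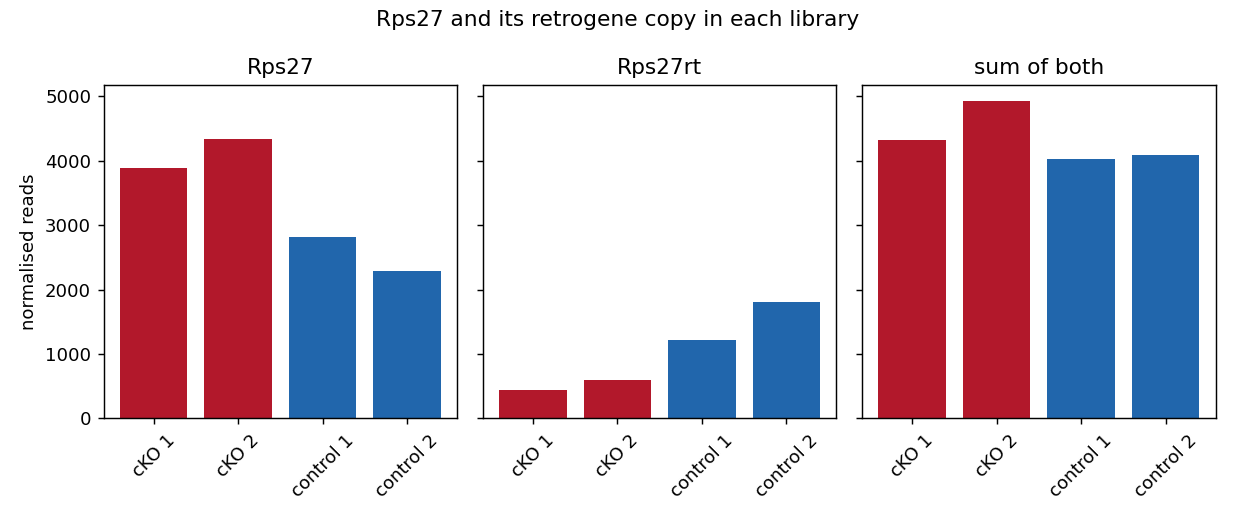
Normalised reads (vertical axis, from 0) of Rps27, Rps27rt and their sum in the 2 cKO libraries (red) and the 2 control libraries (blue). Rps27 was higher and Rps27rt lower in cKO libraries, and the sum lay between 4032 and 4931 in the 4 libraries.

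Rps27l, whose sequence can be told from that of Rps27, rose as well. It had 3517 and 3877 normalised reads in cKO libraries, against 2587 and 2495 in control libraries, and rose by 0.54 on the log2 scale (SE 0.05, limma adjusted p 6.39e-10), by 0.18 with the length trend removed, by 0.92 with the GC trend removed and by 0.67 with both removed. Rps19bp1, the binding partner of RPS19, had 779.8 and 666.9 normalised reads in cKO libraries, against 545 and 505 in control libraries, a log2 fold change of 0.46 that was 0.10 with the length trend removed and 0.13 with the GC trend removed, called under neither. In both genes the cKO libraries lay above the controls.

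Shared sequence was not limited to that pair. More than 50% of the 50-base windows of the reference transcript occurred in another annotated gene for 24 of 49 members. The median over members was 49.4% of windows, and Spearman's rho between this share and the log2 fold change was -0.02 over the 49 members, given as a description. Listed pseudogenes named after ribosomal proteins numbered 6, of which 5 rose, from Rpl3-ps1 with a log2 fold change of 0.16 to Rpl34-ps1 with 0.59, and Rps27a-ps2 fell, with 60.4 and 61.7 normalised reads in cKO libraries, against 120 and 97.7 in control libraries. Members with near-identical copies are uncertain as single genes.

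Pyrimidine runs lay at the annotated starts of part of the members. RefSeq start windows on GRCm38.p6, from 250 bases before to 50 bases after an annotated start, matched 36 of the 49 members. A C followed by 7 or more letters that were each C or T, on the coding strand and within 20 bases of a start, was found in 17 of 36 members (47.2%) and in 14.5% of all 27025 genes with a window. Windows of 60 bases are shown for 6 members described with their values that hold the run, with each run in capitals, to let the tract be compared between genes of different fold change.
Rps27 (chr3:90213629-90213688, minus strand): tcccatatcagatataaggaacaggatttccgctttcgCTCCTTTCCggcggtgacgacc
Rps27l (chr9:66946046-66946105, plus strand): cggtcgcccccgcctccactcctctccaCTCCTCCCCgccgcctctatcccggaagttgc
Rpl35a (chr16:33056442-33056501, plus strand): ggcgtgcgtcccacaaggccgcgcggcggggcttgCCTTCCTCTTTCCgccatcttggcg
Rplp2 (chr7:141447611-141447670, plus strand): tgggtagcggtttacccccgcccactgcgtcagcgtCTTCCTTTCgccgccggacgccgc
Rps18 (chr17:33955646-33955705, minus strand): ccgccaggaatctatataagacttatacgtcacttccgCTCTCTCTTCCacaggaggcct
Rps15a (chr7:118116128-118116187, minus strand): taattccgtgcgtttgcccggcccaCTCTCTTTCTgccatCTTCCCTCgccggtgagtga
The annotated start lies 40 bases into each window, and annotated starts can lie a few bases from those the cell uses. The run of Rps27l and the earlier run of Rps15a end before that start, so as annotated they lie outside the mRNA.

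Other letters in the whole windows were searched on both strands. CCGGAAG, read by ETS factors such as GABPA, was in 44.4% of members and 9.93% of all genes. AAGATGG, the core of the YY1 motif, was in 16.7% of members and 7.28% of all genes, GGGCGG, a motif of SP1, in 63.9% and 38.2%, and TATAAA in 11.1% and 15.7%. These letters describe the windows and were not related to the fold changes.

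Further genes of the translation machinery moved in part like the members. Fau and Rack1, which encode ribosomal proteins under other names, both rose, by 0.20 and 0.18 on the log2 scale, and Fau turned to -0.16 with the length trend removed. Among 18 genes of translation factors and other TOP mRNAs 11 were listed. Of these 9 rose and 2 fell, against 46.7% and 53.3% of all listed genes. Their median was 0.14 on the log2 scale, and -0.06 with the length trend removed, against -0.22 and -0.07 over all listed genes. The largest changes were those of Vim, an intermediate filament gene, with 118741 and 115050 normalised reads in cKO libraries, against 70777 and 68928 in control libraries, and of Npm1, a nucleolar chaperone, with 2743 and 3088 in cKO libraries, against 3968 and 3979 in control libraries. Their log2 fold changes were 0.74 and -0.45, and that of Npm1 was 0.10 with the GC trend removed.

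Genes of ribosome assembly stood near the background of the table under the authors' scaling. Of 40 assembly factors 13 were listed. Of these 5 rose and 8 fell in cKO cells, against 46.7% and 53.3% of all listed genes. Their median was -0.21 on the log2 scale, against -0.22 over all listed genes. It was -0.18 with the length trend removed, -0.08 with the GC trend removed and -0.02 with both removed. Over all listed genes these medians were -0.07, 0.01 and -0.01. With the length trend removed 0 of the 13 were called higher and 7 lower, against 37.2% and 46.1% of all listed genes. The largest changes were falls of Taf1d, a factor of RNA polymerase I, with 142.9 and 211.2 normalised reads in cKO libraries, against 299 and 301.4 in control libraries, and of Rpf2, which brings the 5S particle to the large subunit, with 348.6 and 378.5 in cKO libraries, against 534 and 494.8 in control libraries. On the log2 scale they fell by 0.79 and 0.50, the value of Taf1d being -0.15 and that of Rpf2 0.19 with the GC trend removed. The difference between assembly factors and ribosomal proteins was not tested.

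Among 16 genes that act on the synthesis or translation of ribosomal protein mRNAs 7 were listed. Of these 4 rose and 3 fell, against 46.7% and 53.3% of all listed genes. Their median was 0.17 on the log2 scale, against -0.22 over all listed genes. Mycn, which like MYC drives ribosome production, had 349.5 and 321.6 normalised reads in cKO libraries, against 149 and 182.2 in control libraries. Eif4ebp1, a repressor of cap-dependent translation that mTOR inactivates, had 538.1 and 482.9 normalised reads in cKO libraries, against 270 and 233.1 in control libraries. Mycn and Eif4ebp1 each had a log2 fold change of 1.02 and did not overlap between genotypes, with limma adjusted p-values of 1.5e-07 and 6.68e-09, and with the length trend removed they stood at 0.86 and 0.74. Rps6kb1, which encodes the kinase that phosphorylates RPS6, had 709.5 and 657.4 normalised reads in cKO libraries, against 1299 and 1270 in control libraries, and fell by 0.91 on the log2 scale (limma adjusted p 1.53e-11). Gabpa, an ETS factor, had 1081 and 1050 normalised reads in cKO libraries, against 1669 and 1612 in control libraries, and fell by 0.62 on the log2 scale (limma adjusted p 9.77e-10). With the GC trend removed their log2 fold changes were -0.14 and 0.00, and with the length trend removed -0.68 and -0.55. The third that fell was Yy1, by 0.24 on the log2 scale.

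Of 12 host genes of small nucleolar RNAs 3 were listed, with Snhg15 higher (log2 fold change 0.69) and Snhg6 and Snhg5 lower (-0.47 and -0.53). Snhg15 was no longer called with the length trend removed (0.34, limma adjusted p 0.116). With the GC trend removed Snhg6 turned to 0.14, and Snhg5 stood at -0.17 and was no longer called (limma adjusted p 0.527).

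Markers of other cells moved in the same libraries, and their part in the members' rise was not tested. Among all listed genes, 46.7% were higher and 53.3% lower. Markers of myelin and mature oligodendrocytes were lower in 9 of 9 listed (of 12), their summed normalised reads being 65054 to 67318 in cKO libraries, against 323489 to 324090 in control libraries. Markers of oligodendrocyte precursors were higher in 2 and lower in 4 of 6 listed (of 8), with sums of 49728 to 50493 in cKO libraries, against 58671 to 59201 in control libraries. Astrocyte markers were higher in 9 and lower in 2 of 11 listed (of 12), with sums of 764521 to 771559 in cKO libraries, against 511353 to 512203 in control libraries. Gfap alone held 557247 and 553584 of these normalised reads in cKO libraries, against 351481 and 352111 in control libraries. The summed markers of mature oligodendrocytes and of astrocytes did not overlap between genotypes, and the balance between them differed.

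Pericyte and fibroblast markers were higher in 9 of 9 listed (of 12), with sums of 11909 to 12317 in cKO libraries, against 3808 to 4001 in control libraries. Microglia markers were higher in 5 of 5 listed (of 12), with sums of 2441 to 2615 in cKO libraries, against 1578 to 1617 in control libraries. Neuron markers were higher in 8 and lower in 2 of 10 listed (of 12), with sums of 17532 to 17749 in cKO libraries, against 18610 to 18926 in control libraries, and endothelial markers higher in 3 and lower in 1 of 4 listed (of 10), with sums of 248 to 250 in cKO libraries, against 192 to 229 in control libraries. None of the listed markers was at 0 in both libraries of a genotype. In bulk RNA, fewer cells of one type and less RNA per cell cannot be told apart.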

How the data were processed

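RNA was sequenced from 2 cKO and 2 control libraries of mouse oligodendrocytes. The authors deposited 1 table of normalised signal per gene and library with log2 fold changes, p-values and gene lengths, per the file headers. DESeq2 and the builds mm10 and GRCm38 are named, per the submitters' processing notes. The aligner, counting tool and strand setting are not given in the sources used here. From the deposited p-values and their adjusted values, 17347 genes stood behind the authors' adjustment. The deposited log2 fold changes were used only to check the direction. Whole reads were recovered from the deposited signal: 100% of values in each library were whole within 0.01 read. No unmapped sample column was present (0).

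Genotypes were compared on all 6940 genes with limma 3.58.1 (R 4.3.3), trend of variance with mean, on log2(value + 1), for genes with a value of at least 1 in 2 libraries. The Benjamini-Hochberg adjustment was taken over 17347 genes, with a threshold of 0.05. edgeR 4.0.16 and DESeq2 1.42.0 ran on recovered reads as alternatives. Since the table holds only called genes, pooled variances and p-values may be too small. Fold changes as a log2 are on the log2(value + 1) scale. Trends with deposited gene length, and with GC content of 1 GENCODE M21 transcript per gene (6934 genes), were removed from each library by local regression, keeping the overall median. The fit was tested on simulated data in which most genes were unchanged. The table holds only called genes, so that test does not bear on the pooled variances here. The table's unit is normalised reads, so limma served as the main test and count models as alternatives. Replicates differed beyond counting noise (chi-square over degrees of freedom 3.22 in cKO and 2.31 in control libraries over all genes, and chi-square per gene 11.4 and 11.8 over the 49 members).

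The members and gene lists were chosen with earlier results of these data known. The rule named the 5 largest rises and falls, the 3 highest and 3 lowest genes per kb of each subunit, stalk, 5S and reference genes, Rpsa, Rps6, Rps19 and name matches, and up to 4 genes of each other list. Rpl18, Rps4x and others mentioned only for a lost or kept call were named after their values were seen. One result on shared sequence is not reported here.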

Additional observations from a re-analysis of the deposited data

How the results depend on the processing

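The counts of 48 members higher and 1 lower, and the medians, kept their direction under the pseudocounts, filters, scalings, DESeq2 (46 higher, 1 lower), edgeR (48 and 1), the adjustment over listed genes only and each left-out library. The scalings raised the members alike, so they could not turn a rise into a fall. Shares of all listed genes called in these alternative fits are not given here. Only the scalings, left-out libraries and trend removals run here moved a median, or the count past 1.5-fold, beyond the spread between replicates or 1.5 times. TMM factors gave medians of 0.31 for all members, 0.31 for the large and 0.27 for the small subunit, with 2 members past 1.5-fold higher, and relative log expression factors 0.43, 0.44 and 0.39, with 5. Over the left-out libraries, medians ranged from 0.21 to 0.26 for all members, 0.23 to 0.28 for the large and 0.15 to 0.24 for the small subunit. Rises past 1.5-fold ranged from 0 to 2. 

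With the length trend removed, 7 members were higher and 14 lower, and 0 were past 1.5-fold higher. Medians reversed to -0.06, -0.04 (large) and -0.08 (small), against -0.07 over all listed genes. With the GC trend removed there were 21 and 8, 5 past 1.5-fold higher, and medians of 0.06, 0.05 and 0.06. With both trends removed, an alternative chosen after seeing the data, there were 12 and 21, 2 past 1.5-fold higher, and medians of -0.07, -0.07 and -0.09. Reversed log2 fold changes with length removed were -0.02 for Rplp0, -0.03 for Rps15 and Rpl11, -0.10 for Rps2, -0.07 for Rplp2, -0.09 for Rpsa, -0.08 for Rps18 and -0.16 for Fau. Among these only Rps2, Rpsa and Fau were called. With GC removed the reversed values were -0.01 for Rplp1 and Rpl11, -0.13 for Rpl36, -0.05 for Rps15, -0.10 for Rps2 and Rps18, -0.07 for Rplp2, -0.18 for Fau, 0.10 for Npm1 and 0.19 for Rpf2. Among these only Rpl36, Rps2, Rps18 and Fau were called. With both removed the reversed values were -0.05 for Rplp1 and Rplp0, -0.18 for Rpl36, -0.14 for Rps15, -0.21 for Rps2, -0.17 for Rplp2, -0.11 for Rpl11, -0.10 for Rpsa, -0.19 for Rps18 and -0.31 for Fau. All of these but Rplp1 and Rplp0 were called. The cause was not tested.

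Nothing in the labels pairs the libraries by replicate number, and 2 pairs are too few to show pairing from the data: same-number deviations correlated at 0.0133 over 6940 genes and 0.242 over the 49 members. With the replicate block 47 members were higher and 1 lower, with a median of 0.24 against -0.22 over all listed genes, and Rpsa lost its call (limma adjusted p 0.0636). Each left-out library leaves 1 library in its genotype, which is then assumed to vary like the other genotype. The table holds 40% of the genes the authors adjusted over, so nothing here bears on the other genes, and 2 libraries a genotype limit the precision of every spread.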
